A study of Rattus norvegicus with 38 samples.

Results

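The fatty acid uptake and oxidation genes form a list of 43 rat genes that runs from the capture of fatty acids at the vessel wall to the transfer of electrons from β-oxidation, with the kinases that switch the heart between glucose and fat and 2 uncoupling proteins at its end. A gene was taken as measured where an oligonucleotide probeset carried its current or former symbol and no other, and a gene with several such probesets was represented by the brightest. By this rule 42 of the 43 genes were measured on both array types, out of 10411 genes with a symbol of their own on the heart array and 14217 on the array used for peripheral blood mononuclear cells (PBMC). Acaa1a, a peroxisomal thiolase, lies only on a probeset shared with Acaa1b and has no value here.

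The adult heart draws most of its energy from long-chain fatty acids. Lipoprotein lipase frees them from circulating triglyceride, carriers bring them into the cardiomyocyte, acyl-CoA synthetases activate them, and the carnitine shuttle moves them into the mitochondrion, where β-oxidation removes acetyl-CoA units and passes electrons to the respiratory chain. Malonyl-CoA blocks the shuttle at carnitine palmitoyltransferase 1, and pyruvate dehydrogenase kinases hold back the competing oxidation of glucose. Several steps have isoforms of different tissues, as with the muscle and liver forms of carnitine palmitoyltransferase 1 (Cpt1b and Cpt1a).

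The samples were rat hearts and PBMC, with 1 array per sample. Dark Agouti (DA) donor hearts were placed in the abdomen of DA rats (isografts, n = 4) or of Brown Norway (BN) rats (allografts, n = 5) and were taken on post-transplant day 6 together with the recipients' own hearts (4 native DA and 5 native BN hearts). Before placement the donor hearts had an atrial septal defect made and the tricuspid leaflets disrupted, and both the graft and the native heart were sampled as cross-sections of the ventricles and the septum. PBMC were isolated on a density gradient from 5 BN allograft recipients and 9 DA isograft recipients on day 6 and from 3 BN and 3 DA rats without a transplant. All transplanted hearts are DA hearts, so allografts differ from isografts by the strain of the host. The study describes allografts as diffusely inflamed and necrotic, with loss of pulsation on day 6 in this model, and isografts as minimally changed. It also says that recipient lymphocytes in the allografts may contribute strain-associated expression, which was not tested here. Native BN and native DA hearts differ both in strain and in the type of graft that their owner carried, which cannot be told apart. PBMC of transplanted and of untransplanted rats were processed in 2 batches, so batch and transplantation cannot be told apart there. The ages of the rats are not given in the sources used here.

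Signals are given in array medians, where 1 is the signal of the median probeset of that array. The array median, in deposited units, was between 38.3 and 50.8 for the 18 heart samples and between 20.2 and 36.8 for the 20 PBMC samples, and no pair of samples held identical values. A difference passed when its adjusted p in limma was at most 0.10 over all 15866 heart or 31042 PBMC probesets. It was called when it also reached 3-fold and when a minimum of 50% of samples in 1 of the groups had a signal no lower than the array median. Of the 42 genes, 37 in heart and 33 in PBMC reached the array median in a minimum of 50% of the samples. Among cardiomyocyte markers, cardiac troponin I (Tnni3) lay between 66.7 and 198 array medians in native hearts and isografts and between 5.45 and 25.1 in allografts. In PBMC it lay between 0.0205 and 0.148, and the leukocyte antigen Ptprc lay between 72.6 and 126.

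Promoter sequences were read from RefSeq for assembly GRCr8 and were available for 35 of the 43 genes. They are missing for Lpl, Fabp4, Lipe, Cpt1b, Acadl, Ech1, Decr1 and Acaa2. The 250 bases upstream of 3 start sites, picked with the results below known, are printed here. Hadha shares its upstream region with Hadhb, and both fell in rejection relative to the array median, as did 31 of the 42 genes. Acsl1 and Acsl4, which code for the same enzyme activity, moved in opposite directions on that scale. A link between these sequences and the changes was not tested. Capitals mark matches, on either strand, to GGGCGG (GC box) or CCAAT, and bases run 5′ to 3′ on the gene's strand. Hadha lies on the plus strand at chr6:31907551-31907800, Acsl1 on the minus strand at chr16:52532393-52532642 and Acsl4 on the minus strand at chrX:110803262-110803511.
Hadha: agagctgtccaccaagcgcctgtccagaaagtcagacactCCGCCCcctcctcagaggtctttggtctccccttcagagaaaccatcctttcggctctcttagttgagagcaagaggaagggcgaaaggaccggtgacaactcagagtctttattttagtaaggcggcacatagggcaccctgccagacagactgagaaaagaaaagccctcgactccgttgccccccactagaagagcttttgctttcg
Acsl1: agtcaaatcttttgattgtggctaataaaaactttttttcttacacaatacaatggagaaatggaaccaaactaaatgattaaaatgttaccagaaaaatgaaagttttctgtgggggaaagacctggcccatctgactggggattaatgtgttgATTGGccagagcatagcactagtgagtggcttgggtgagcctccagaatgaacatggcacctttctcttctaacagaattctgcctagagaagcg
Acsl4: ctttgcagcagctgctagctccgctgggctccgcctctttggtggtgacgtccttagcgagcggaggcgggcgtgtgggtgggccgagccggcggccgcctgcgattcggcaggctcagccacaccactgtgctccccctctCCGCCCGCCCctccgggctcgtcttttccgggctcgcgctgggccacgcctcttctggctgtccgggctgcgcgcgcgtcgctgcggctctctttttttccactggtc
The start sites of Hadha and Hadhb lie 300 bases apart and point away from each other, and their 250-base windows share 200 bases. Acsl1 has 1 CCAAT match, read on the opposite strand. Acsl4 has 2 GC box matches that overlap.

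Across the 35 promoters, GGGCGG was found in 20 (57.1%), against 30.5% of all 33469 promoters of the same length. CCAAT was found in 13 (37.1%, against 34.0%) and TATAAA in 3 (8.57%, against 12.9%). AGGTCA, the core hexamer that nuclear receptors such as the peroxisome proliferator-activated receptors recognise, was found in the promoters of Acacb, Acadvl, Echs1, Eci1, Slc27a1 and Ucp3, which is 6 of 35 (17.1%, against 14.1%). The direct repeat AGGTCANAGGTCA was found in none of the 35 and in 0.0508% of all promoters, and TCAAGGTCA, which contains AGGTCA, in none and in 0.388%. These matches describe the letters of a short window and no binding was measured.

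Allografts were set against isografts to measure acute rejection of the same donor strain. In allografts, 31 of the 42 genes fell and 3 rose, relative to the median probeset of the array. Scaled instead to cardiomyocyte markers, as described further on, 5 were lower and 21 higher, where 1.02% of all probesets were lower and 93.4% higher. This scaling moves every log2 fold change by the same amount, so it is not a separate result for each gene. Log2 fold changes below are given ± their standard error. Among all 15866 probesets 21.2% fell and 20.3% rose relative to the array median. The median log2 fold change was -1.91 over the 42 genes and 0.02 over all probesets. By the 3-fold criterion 26 genes were called lower and 1 higher, where 5.05% and 3.81% of all probesets were called. The 31 genes that fell and the 3 that rose had no overlap between allografts and isografts, which held for 15.9% (lower) and 15.4% (higher) of all probesets. The 8 genes that did not pass overlapped. Summed over the 42 genes, the signal lay between 160 and 219 array medians in the allografts, between 596 and 1035 in the isografts, between 963 and 1291 in native DA hearts and between 894 and 1231 in native BN hearts.

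**Figure D1:**
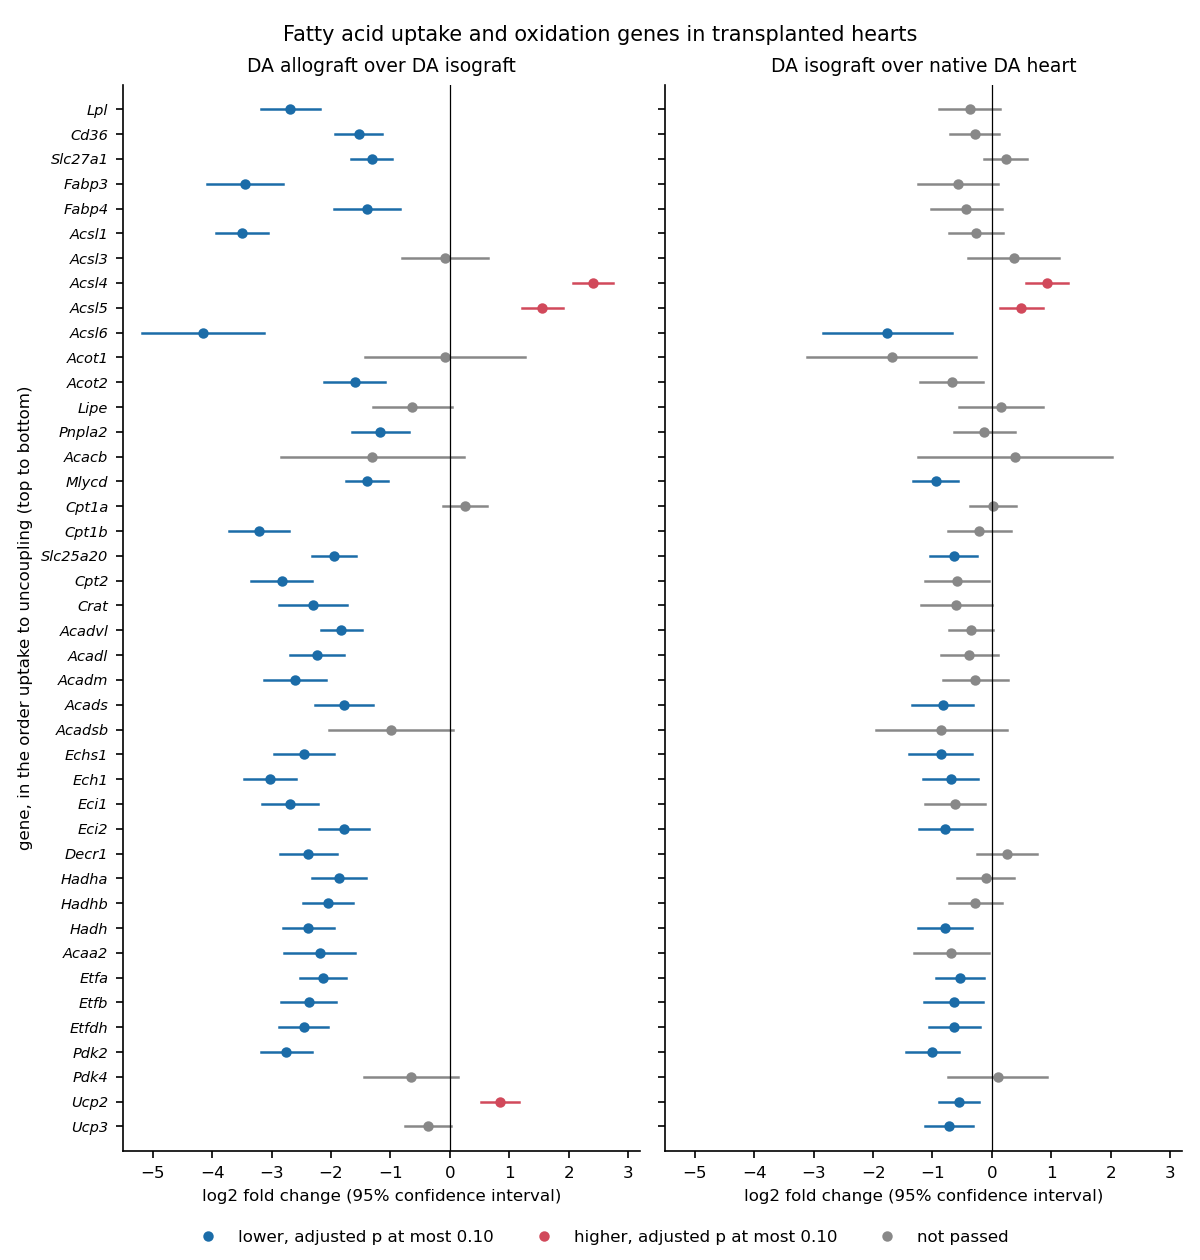
Log2 fold change of each of the 42 genes (points) with its 95% confidence interval (bars), in the order of the pathway, for allografts over isografts (left) and isografts over native DA hearts (right), relative to the array median. In the left panel 31 genes lie below 0 and 3 above it at an adjusted p of at most 0.10, and in the right panel 14 and 2 do. Scaled to cardiomyocyte markers (not drawn), 5 genes of the left comparison lie below and 21 above, where 1.02% and 93.4% of all probesets do.

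Markers of several cell types also differed between allografts and isografts, in both directions. Of 17 cardiomyocyte markers, 16 fell in allografts with a median log2 fold change of -2.49, and their summed signal lay between 234 and 595 array medians in allografts and between 980 and 1625 in isografts. Myosin heavy chain 6 (Myh6) lay between 0.538 and 9.52 in allografts and between 60.3 and 109 in isografts, and natriuretic peptide A (Nppa) was the marker that did not pass. Of 16 leukocyte markers 15 rose, and their summed signal lay between 114 and 191 in allografts and between 17.4 and 25.1 in isografts. The summed signal of 10 endothelial markers lay between 31.3 and 35.4 in allografts and between 33.4 and 37.9 in isografts, with 3 of the markers higher and 2 lower. Of 6 adipocyte markers 0 passed, with sums of 5.42 to 13.2 in allografts and 5.73 to 11.1 in isografts. Of 10 fibroblast markers 7 fell, with a summed signal of 28.8 to 249 in allografts and 214 to 276 in isografts, and all 4 neutrophil markers rose, with sums of 5.69 to 29.6 and 1.89 to 3.46. In these pieces of tissue, fewer cells of a type and less RNA per cell cannot be told apart, and the part of any of these marker lists in the changes of the fatty acid genes was not tested.

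**Figure D2:**
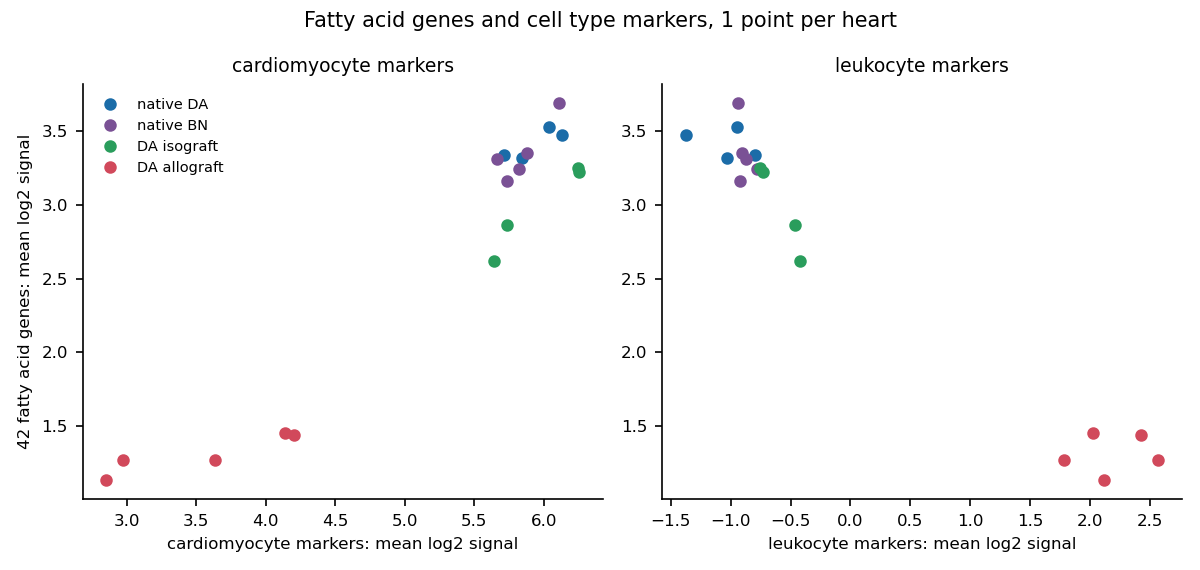
Mean log2 signal of the 42 fatty acid genes (vertical axis, log2 array medians) against that of 17 cardiomyocyte markers (left) and 16 leukocyte markers (right), with 1 point per heart coloured by group. The 5 allografts lie between 1.13 and 1.45 on the vertical axis and the 13 other hearts between 2.62 and 3.69, and the allografts also lie apart on both horizontal axes.

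All 5 genes of fatty acid release and uptake fell in allografts relative to the array median. Scaled to cardiomyocyte markers, where 93.4% of all probesets were higher, Cd36, Slc27a1 and Fabp4 were higher and Fabp3 was lower. Lipoprotein lipase (Lpl), which frees fatty acids in the capillary, measured 6.51, 8.88, 7.51, 4.66 and 12.3 array medians in the allografts and 60.4, 35.97, 42.6 and 60.5 in the isografts. It was 6.42-fold lower, with a log2 fold change of -2.68 ± 0.23 (adjusted p = 1.74e-07). The fatty acid translocase Cd36 measured 6.17, 6.702, 8.31, 9.31 and 5.297 in allografts and 21.97, 19.5, 17.8 and 22.3 in isografts. Each allograft lay below each isograft for both genes, and the fall of Cd36 was -1.53 ± 0.18 on the log2 scale, smaller than 3-fold.

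Inside the cell, the heart-type fatty acid binding protein Fabp3 carries fatty acids through the cytosol. Its signal was 10.4, 14.5, 12.9, 4.96 and 16.1 in allografts and 156, 82.4, 99.1 and 159 in isografts, a 10.9-fold lower level with a log2 fold change of -3.45 ± 0.30 (adjusted p = 1.97e-07). Isografts 11 and 12 were lower than isografts 9 and 13, and allograft 6 was the lowest of all hearts. Fabp4, the form of fat cells and capillary endothelium, fell by less, from 15.9 to 29.1 in isografts to 6.56 to 13.9 in allografts (-1.39 ± 0.26, adjusted p = 4.89e-04). The transport protein Slc27a1 fell from 7.28 to 10.5 to 3.26 to 3.94 (-1.31 ± 0.16, adjusted p = 7.62e-06).

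The 5 long-chain acyl-CoA synthetases, which activate fatty acids by joining them to coenzyme A, did not move together. Acsl1, the main form of heart muscle, measured 2.13, 1.91, 1.51, 1.69 and 2.605 in allografts against 25.8, 14.9, 19.9 and 29.3 in isografts. It was 11.3-fold lower (-3.50 ± 0.20, adjusted p = 4.24e-09), and a second Acsl1 probeset gave a log2 fold change of -3.36. Acsl4, which prefers arachidonic acid, measured 6.19, 5.24, 7.89, 5.98 and 7.48 in allografts against 0.946, 1.403, 1.49 and 1.12 in isografts. It was 5.31-fold higher (2.41 ± 0.16, adjusted p = 1.51e-08). Acsl1 thus fell and Acsl4 rose in hearts where no allograft overlapped an isograft for either gene.

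Acsl5, a form abundant in intestine, also rose, with 11.1, 9.52, 6.53, 7.99 and 10.9 in allografts and 2.69, 2.89, 3.05 and 3.71 in isografts (1.56 ± 0.16, adjusted p = 9.71e-07). Acsl6, a form best known from brain and red cell precursors, fell from 1.33, 0.176, 0.627 and 1.68 in isografts to 0.0262, 0.0322, 0.0474, 0.0463 and 0.0521 in allografts. This log2 fold change of -4.16 ± 0.49 (adjusted p = 3.87e-06) rests on allograft signals far below the array median, and with 0.25 array medians added to every signal it was -1.83. Acsl3, of lipid droplets, measured 0.648 to 1.41 in allografts and 0.448 to 1.49 in isografts and did not pass (-0.08 ± 0.34, adjusted p = 0.884). In PBMC, which were measured on another array type and normalized separately, the signals over all 20 samples ran from 6.42 to 10.5 for Acsl4 and from 13.0 to 29.9 for Acsl5.

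**Figure D3:**
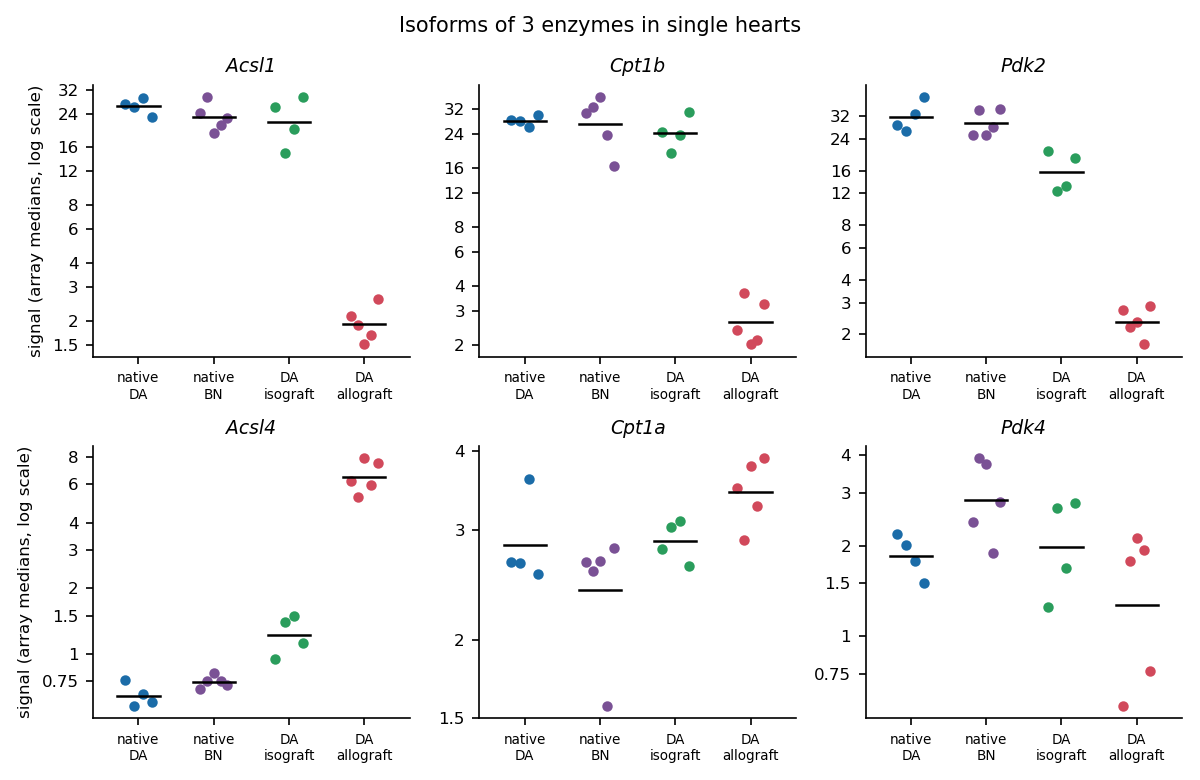
Signal in array medians (log scale) of pairs of isoforms of 3 enzymes in single hearts (points) with the geometric mean of each group (line). Acsl1, Cpt1b and Pdk2 (top) are lower in every allograft than in every other heart, while Acsl4 (bottom) is higher in every allograft and Cpt1a and Pdk4 overlap between allografts and isografts.

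Around activation lie enzymes that release fatty acids again, from acyl-CoA or from stored triglyceride. Acot2, a mitochondrial thioesterase that splits acyl-CoA again, fell from 0.906 to 1.35 in isografts to 0.267 to 0.431 in allografts (-1.60 ± 0.24, adjusted p = 5.09e-05). Its cytosolic relative Acot1 was dim in every heart (0.0412 to 0.234 in allografts, 0.0250 to 0.229 in isografts) and gave -0.08 ± 0.64. Pnpla2, the lipase that starts the breakdown of stored triglyceride, fell from 7.12 to 11.5 to 2.98 to 5.11 (-1.17 ± 0.23, adjusted p = 5.94e-04). Hormone-sensitive lipase (Lipe) overlapped between the groups, with 0.782 to 1.79 in allografts and 1.35 to 2.12 in isografts and a difference of -0.63 ± 0.31 (adjusted p = 0.136). Acot1 and Acot2 are close paralogs in a cluster of thioesterase genes, so their signals are uncertain as measures of single genes.

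Malonyl-CoA, the inhibitor of entry into the mitochondrion, is made by Acacb and removed by Mlycd. Mlycd measured 2.01, 2.58, 2.11, 2.19 and 2.81 in allografts and 7.56, 4.93, 5.43 and 6.85 in isografts, a 2.63-fold lower level (-1.39 ± 0.17, adjusted p = 5.90e-06). Acacb lay below the array median in every heart and varied widely within groups, from 0.0277 to 0.134 in allografts and from 0.0462 to 0.376 in isografts. Its difference of -1.30 ± 0.73 (adjusted p = 0.191) did not pass.

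Of the 5 genes of the carnitine shuttle 4 fell relative to the array median. Scaled to cardiomyocyte markers, where 93.4% of all probesets were higher, 1 of these 4, Cpt1b, was lower, and Cpt1a was higher. Cpt1b, the muscle form of the enzyme that makes acyl-carnitine, measured 2.37, 3.69, 2.01, 2.12 and 3.24 in allografts and 24.4, 19.1, 23.7 and 31.2 in isografts. It was 9.28-fold lower (-3.21 ± 0.24, adjusted p = 3.90e-08). Cpt1a, the form of liver and of most other cells, measured 3.501, 2.89, 3.796, 3.27 and 3.9 in allografts and 2.79, 3.03, 3.095 and 2.62 in isografts. The groups overlapped for Cpt1a, and the log2 fold change of 0.26 ± 0.18 did not pass, with a 95% interval of -0.11 to 0.63.

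The other shuttle genes also fell relative to the array median. Cpt2, which returns the acyl group to coenzyme A inside the mitochondrion, measured 1.22, 0.923, 0.927, 0.901 and 1.75 in allografts and 9.97, 5.26, 6.64 and 10.9 in isografts, and fell by 2.83 on the log2 scale (adjusted p = 1.64e-07). The carrier Slc25a20, which exchanges acyl-carnitine for carnitine, was 3.87-fold lower (-1.95 ± 0.18). Carnitine acetyltransferase (Crat), which buffers acetyl groups, was 4.92-fold lower (-2.30 ± 0.27).

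Of the 5 acyl-CoA dehydrogenases, which open each round of β-oxidation, 4 fell in allografts relative to the array median. Scaled to cardiomyocyte markers, where 93.4% of all probesets were higher, Acadvl, Acads and Acadsb were higher and none lower. The medium-chain enzyme Acadm measured 11.6, 13.3, 8.75, 7.63 and 16.9 in allografts and 87.7, 50.01, 56.9 and 87.1 in isografts and was 6.101-fold lower (-2.61 ± 0.25, adjusted p = 4.26e-07). The long-chain enzyme Acadl was 4.73-fold lower (-2.24 ± 0.22), the very-long-chain enzyme Acadvl 3.55-fold lower (-1.83 ± 0.16) and the short-chain enzyme Acads 3.45-fold lower (-1.78 ± 0.23). Each allograft lay below each isograft for these 4 genes. Acadsb, which acts on branched short chains, was dim throughout, with 0.0358 to 0.277 in allografts and 0.142 to 0.366 in isografts, and did not pass (-1.0 ± 0.49, adjusted p = 0.134).

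All 5 hydratase, isomerase and reductase genes fell relative to the array median. Scaled to cardiomyocyte markers, where 93.4% of all probesets were higher, Ech1 was lower and Eci2 higher. Ech1, which shifts double bonds of unsaturated acyl chains, measured 6.17, 6.67, 6.08, 5.09 and 5.58 in allografts and 57.2, 31.5, 48.2 and 61.1 in isografts. It was 8.14-fold lower (-3.03 ± 0.21, adjusted p = 1.94e-08). The short-chain hydratase Echs1 was 5.47-fold lower (-2.45 ± 0.24). The isomerases Eci1 and Eci2, needed for unsaturated fatty acids, were 6.43-fold lower (-2.69 ± 0.22) and 3.45-fold lower (-1.78 ± 0.20). The reductase Decr1, which acts on polyunsaturated chains, was 5.202-fold lower (-2.38 ± 0.23).

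Hadha and Hadhb, the subunits of the mitochondrial trifunctional protein whose shared upstream region is printed above, both fell relative to the array median. Both were higher when scaled to cardiomyocyte markers (0.55 and 0.36 on the log2 scale). Under that scaling 93.4% of all probesets were higher, with a median of 2.43 over all probesets. Hadha measured 6.54, 7.59, 5.56, 4.38 and 8.19 in allografts and 30.4, 19.3, 17.7 and 26.2 in isografts and was 3.63-fold lower (-1.86 ± 0.21, adjusted p = 3.43e-06). Hadhb measured 13.7, 18.6, 11.4, 11.6 and 15.1 in allografts and 68.7, 41.1, 49.6 and 75.9 in isografts and was 4.13-fold lower (-2.04 ± 0.20, adjusted p = 5.91e-07). Neither gene overlapped between the groups. Hadh, the short-chain hydroxyacyl dehydrogenase, was 5.21-fold lower (-2.38 ± 0.20), and the thiolase Acaa2, which releases acetyl-CoA, 4.56-fold lower (-2.19 ± 0.28). Hadh and Eci1 each have a second probeset under 0.5 array medians in the middle heart, and these gave -0.35 ± 0.50 and -0.82 ± 0.74 and did not pass.

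The electron transfer flavoprotein takes electrons from the acyl-CoA dehydrogenases and hands them to its oxidoreductase. Its subunits Etfa and Etfb were 4.38-fold lower (-2.13 ± 0.18) and 5.17-fold lower (-2.37 ± 0.22), and the oxidoreductase Etfdh was 5.51-fold lower (-2.46 ± 0.20). In allografts Etfb measured 7.24, 6.802, 5.76, 5.62 and 6.74, and in isografts 44.97, 22.1, 27.1 and 44.7. All 3 genes were lower in each allograft than in each isograft.

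The pyruvate dehydrogenase kinases, which restrain glucose oxidation, differed from each other. Pdk2 measured 2.72, 2.196, 2.33, 1.76 and 2.88 in allografts and 20.6, 12.3, 13.1 and 18.7 in isografts, a 6.74-fold lower level (-2.75 ± 0.20, adjusted p = 3.62e-08). A second Pdk2 probeset gave -3.87. Pdk4, the form induced by fasting and by fatty acids, measured 0.586, 1.78, 2.12, 1.93 and 0.765 in allografts and 1.25, 2.67, 1.68 and 2.76 in isografts. It overlapped between the groups and did not pass (-0.65 ± 0.37, adjusted p = 0.203).

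Of the uncoupling proteins, Ucp2, which is widespread and abundant in immune cells, rose from 7.47, 6.29, 7.84 and 6.78 in isografts to 17.1, 11.4, 12.4, 13.5 and 10.2 in allografts (0.85 ± 0.15, adjusted p = 2.96e-04). Ucp3, the muscle form, lay near the array median with 0.547 to 0.880 in allografts and 0.809 to 1.099 in isografts and did not pass (-0.36 ± 0.18, adjusted p = 0.146). Ucp2 in PBMC ran from 22.9 to 59.7 array medians over all samples, on the other array type. The genes that rose in allografts relative to the array median were thus Acsl4, Acsl5 and Ucp2, and leukocyte markers rose beside them, as given above. Genes that fell were both bright and dim in PBMC, with 12.9 to 31.8 for Hadhb and 0.122 to 1.2 for Fabp3. The cell source of the 3 rises was not tested.

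Each heart was also scaled to its mean log2 signal of the 17 cardiomyocyte markers, in place of the array median. The group mean of this signal was 3.56 in allografts and 5.97 in isografts. The scaling therefore moves the log2 fold change of every probeset up by the same amount, and only the standard errors change by gene. The order of the genes by fold change stays the same, and the direction turns where the first fall was smaller than that amount. Under this scaling 5 genes were lower in allografts than in isografts and 21 were higher, with a median log2 fold change of 0.50 over the 42 genes. Among all probesets 1.02% were lower and 93.4% higher under it, with a median of 2.43. The 5 that remained lower were Acsl6 (-1.75 ± 0.48), Acsl1 (-1.09 ± 0.24), Fabp3 (-1.04 ± 0.24), Cpt1b (-0.81 ± 0.25) and Ech1 (-0.62 ± 0.26). The Acsl6 value rests on allograft signals of 0.0262 to 0.0521 array medians, and this scaling was not repeated with the offset of 0.25 array medians. Of the 31 genes that fell relative to the array median, 15 did not pass under this scaling and 11 were higher. Those 11 were Cd36, Slc27a1, Fabp4, Acot2, Pnpla2, Mlycd, Acadvl, Acads, Eci2, Hadha and Hadhb, from 0.36 for Hadhb to 1.24 for Pnpla2. Cpt1a, which did not pass relative to the array median, was 2.67 ± 0.33 higher on the log2 scale.

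**Figure D4:**
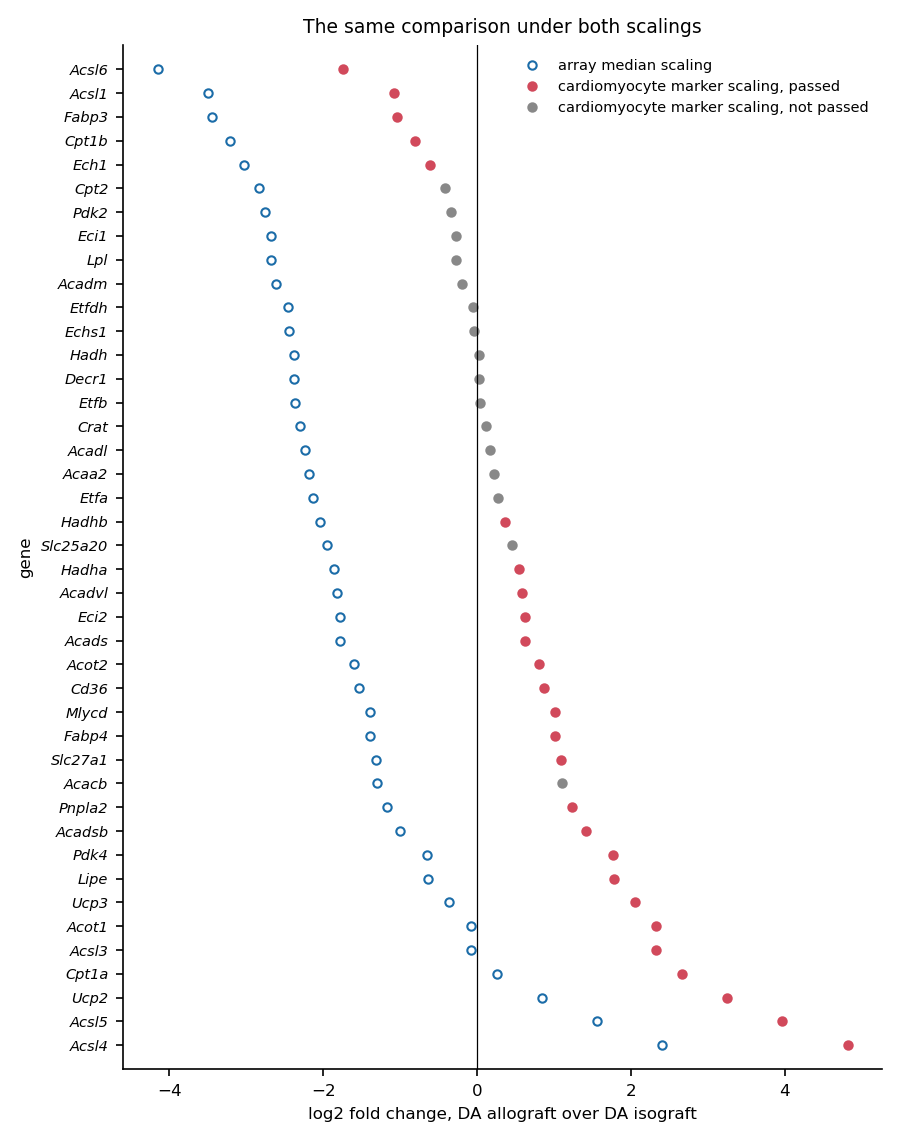
Log2 fold change of allografts over isografts for the 42 genes relative to the array median (open points) and to 17 cardiomyocyte markers (filled points, coloured where the adjusted p is at most 0.10). The cardiomyocyte scaling moves every gene to the right by the same amount. Acsl6, Acsl1, Fabp3, Cpt1b and Ech1 are the 5 genes that still pass below 0. Acsl6 lies far below the array median in allografts.

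Isografts were set against native DA hearts, the hearts of the same recipients, as the measure of transplantation without a strain mismatch. Here 14 of the 42 genes were lower and 2 higher in isografts, where 6.59% of all probesets were lower and 7.15% higher. The median log2 fold change was -0.54 over the 42 genes and -0.08 over all probesets. The genes that passed lower were Acsl6, Mlycd, Slc25a20, Acads, Echs1, Ech1, Eci2, Hadh, Etfa, Etfb, Etfdh, Pdk2, Ucp2 and Ucp3, and those that passed higher were Acsl4 and Acsl5. By the 3-fold criterion 1 gene, Acsl6, was called, where 0.0819% of all probesets were called lower and 0.826% higher. Groups did not overlap for 15 genes on the lower side and 2 on the higher side, where 8.06% and 8.68% of all probesets did not.

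These counts depended on single hearts. Isografts 11 and 12 lay below isografts 9 and 13 for 31 of the 42 genes, a split picked after seeing the data. The share of all probesets split in this way was not counted. The summed cardiomyocyte marker signal was 980 and 1033 array medians in isografts 11 and 12, against 1625 and 1520 in isografts 9 and 13. Without isograft 11, 5 genes were lower, without isograft 12, 6, and without native DA heart 9 or 13, 7. With isografts 11 and 12 left out together, a choice made after seeing the data, 1 gene (Ucp3) was lower and 1 (Acsl4) higher, and the median was -0.18. Of the 16 genes that passed, Acsl4 and Ucp3 passed under all 17 settings tried other than the cardiomyocyte scaling. With the recipient as a block, Acsl5, Slc25a20, Etfa and Ucp2 did not pass (adjusted p in limma of 0.127, 0.109, 0.112 and 0.108). Of the 17 cardiomyocyte markers 1 was higher and 1 lower in isografts, and their part in these differences was not tested.

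After Acsl6, Pdk2 and Mlycd had the largest falls among the genes that passed. Pdk2 measured 20.6, 12.3, 13.1 and 18.7 in isografts and 28.6, 26.4, 32.7 and 40.8 in native DA hearts, with no overlap (-1.0 ± 0.21, adjusted p = 0.0109). Mlycd measured 7.56, 4.93, 5.43 and 6.85 in isografts and 14.3, 9.39, 11.3 and 12.5 in native DA hearts, again with no overlap (-0.94 ± 0.18, adjusted p = 0.00567). Both also passed under scaling to cardiomyocyte markers, at -1.04 and -0.98, and were the only 2 of the 42 genes to do so, where 0.574% of all probesets were lower and 0.889% higher. With isografts 11 and 12 left out, their adjusted p in limma were 0.164 and 0.104.

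Acsl4 measured 0.946, 1.403, 1.49 and 1.12 in isografts and 0.755, 0.577, 0.652 and 0.599 in native DA hearts (0.93 ± 0.17, adjusted p = 0.00466), and every isograft lay above every native DA heart. Acsl5 measured 2.69, 2.89, 3.05 and 3.71 and 2.27, 2.08, 2.001 and 2.36 (0.50 ± 0.17, adjusted p = 0.0807). Leukocyte markers had a summed signal of 17.4 to 25.1 in isografts and 8.98 to 12.9 in native DA hearts, with 5 of 16 higher and 1 lower, and 5 of 6 monocyte markers and 6 of 10 fibroblast markers were higher. Among the genes of uptake and the muscle isoforms, Lpl gave -0.37 ± 0.24, Cd36 -0.29 ± 0.19, Fabp3 -0.58 ± 0.32, Acsl1 -0.27 ± 0.22 and Cpt1b -0.21 ± 0.25 on the log2 scale, and none of them passed. Their 95% intervals, such as -1.25 to 0.09 for Fabp3, include falls as large as those of genes that passed.

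Allografts against native DA hearts joined both steps, and this comparison shares samples with the other 2. Relative to the array median 34 genes were lower and 2 higher, where 27.4% and 22.7% of all probesets were, and the median log2 fold change was -2.45 (scaled to cardiomyocyte markers, 16 were lower and 13 higher, where 1.54% and 90.4% of all probesets were). Fabp3 fell from 194, 160, 142 and 229 in native DA hearts to the allograft values above, 16.4-fold lower (-4.03 ± 0.30, adjusted p = 1.71e-08). Acsl1 was 13.5-fold lower, Pdk2 13.5-fold lower, Ech1 13.2-fold lower and Cpt1b 10.7-fold lower. Acsl4 was 10.1-fold higher and Acsl5 4.16-fold higher. Ucp2, from 9.25 to 11.5 in native DA hearts, overlapped the allografts and did not pass (0.30 ± 0.15, adjusted p = 0.128).

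Native BN hearts were set against native DA hearts, which differ in strain and in the type of graft that their owner carried. In limma 0 of the 42 genes passed, where 1.48% of all probesets were higher and 1.46% lower in BN hearts, and the median log2 fold change was -0.15. At an unadjusted p under 0.05 in limma there were 3 higher and 7 lower genes, and the share of all probesets at that cut was not counted. The groups did not overlap for Ucp2 (higher in BN) and for Slc25a20 and Crat (lower), where 3.26% and 3.41% of all probesets did not. Ucp2 measured 13.8, 13.8, 15.1, 13.8 and 17.5 in BN and 10.8, 10.03, 11.5 and 9.25 in DA hearts (0.51 ± 0.15, adjusted p = 0.116). Of 10 endothelial markers 3 were also higher in BN hearts and none lower, with summed signals of 38.1 to 46.7 against 33.7 to 36.5 that did not overlap, and their part in the differences of Ucp2 and Cd36 was not tested. Ucp2 passed with signals as deposited, with an offset, with a filter on dim probesets and in an ordinary analysis of variance, at adjusted p from 0.0706 to 0.0925.

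Slc25a20 measured 11.99, 11.9, 9.05, 8.29 and 8.49 in BN and 13.01, 13.2, 12.4 and 17.6 in DA hearts (-0.51 ± 0.18, adjusted p = 0.187), and Crat 8.23, 11.5, 8.999, 8.33 and 10.5 and 14.1, 15.1, 13.5 and 17.1 (-0.66 ± 0.27, adjusted p = 0.285). Cd36 measured 34.6, 48.6, 35.8, 35.6 and 27.8 in BN and 27.9, 27.4, 22.2 and 22.5 in DA hearts, with the lowest BN heart inside the range of the DA hearts (0.53 ± 0.18, adjusted p = 0.186). Acacb had the largest difference, 2.07 ± 0.73 (adjusted p = 0.194), at signals of 0.290 to 0.721 in BN and 0.0372 to 0.521 in DA hearts, all below the array median. It passed with an offset (adjusted p = 0.0872) and without native DA heart 12 (adjusted p = 0.0618). The brightest and a second probeset of Pdk2 gave -0.12 and 0.87 in this comparison, and neither passed. The 95% interval of the log2 difference between native BN and native DA hearts was -0.55 to 0.45 for Cpt1b, -0.54 to 0.51 for Acadm, -0.41 to 0.45 for Hadh and -0.62 to 0.25 for Acsl1.

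In PBMC of rats without a transplant, 2 of the 42 genes were higher and 1 lower in BN than in DA, where 3.58% of all probesets were higher and 4.86% lower. Etfb measured 10.6, 11.7 and 13.5 array medians in BN and 7.199, 7.34 and 6.08 in DA PBMC (0.79 ± 0.21, adjusted p = 0.0286). Hadh measured 18.2, 20.5 and 20.1 in BN and 15.2, 13.5 and 11.8 in DA PBMC (0.54 ± 0.14, adjusted p = 0.0276). Eci2 measured 4.02, 4.23 and 4.18 in BN and 7.197, 5.27 and 6.21 in DA PBMC (-0.58 ± 0.17, adjusted p = 0.0563). With 3 rats a group none overlapped, and the groups did not overlap for 5 genes on the higher and 8 on the lower side, where 9.53% and 19.1% of all probesets did not. None of the 3 passed in every setting: without DA rat 3 no gene passed, and without BN rat 1, 2 or 3 or DA rat 1 Eci2 did not. Of 9 T cell markers 5 were lower in BN (summed signal 436 to 483 against 772 to 815 array medians) and of 8 monocyte markers 6 were higher (289 to 358 against 243 to 370), and their part in these differences was not tested.

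Between BN allograft recipients and DA isograft recipients, which differ in strain and in rejection together, 6 genes were higher and 3 lower, where 6.66% of all probesets were higher and 12% lower. Etfb measured 10.8, 9.78, 12.7, 8.71 and 9.51 in BN recipients. In the 9 DA recipients it lay between 2.95 and 5.22 with a median of 4.33, below every BN recipient, and the difference was 1.31 ± 0.14 (adjusted p = 4.31e-06). Hadh measured 11.9, 12.2, 12.5, 11.5 and 10.6 in BN recipients and lay between 6.19 and 8.32 with a median of 7.64 in DA recipients, with no overlap (0.64 ± 0.10, adjusted p = 1.50e-04). Eci2 measured 2.77, 2.93, 3.01, 2.55 and 2.56 in BN recipients and lay between 3.35 and 4.92 with a median of 3.99 in DA recipients (-0.52 ± 0.12, adjusted p = 0.00527). These 3 genes were the ones without overlap, where 2.39% (higher) and 3.19% (lower) of all probesets did not overlap.

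The other genes that passed overlapped between the recipients. On the log2 scale Acaa2 was 0.46 ± 0.11 higher, Crat 0.75 ± 0.22, Acadm 0.33 ± 0.12 and Ucp3 0.54 ± 0.19. Ech1 gave -0.47 ± 0.13 and Ucp2 -0.65 ± 0.17. Ucp2 measured 22.9, 29.1, 34.7, 24.4 and 25.02 in BN recipients and lay between 28.98 and 59.7 with a median of 45.6 in DA recipients. With quantile normalization 12 genes were higher and with signals as deposited 11, and 3 were lower in both. The shares of all probesets under these 2 settings are not given here. The median log2 fold change over all probesets moved too, from -0.03 to 0.01 with quantile normalization and to 0.10 with signals as deposited. Second probesets of Hadh, Acaa2 and Ucp3, all dimmer than the first, gave 1.09, 0.12 and 0.94 and did not pass.

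Blood cell markers moved with this contrast. Of 9 T cell markers 8 were lower in BN recipients (summed signal 187 to 330 against 308 to 522 array medians), of 6 red cell markers 5 were lower (148 to 232 against 218 to 532), and of 8 monocyte markers 5 were higher and 1 lower. Of 5 platelet markers 4 were lower and 1 higher (170 to 258.5 against 259.5 to 334), of 5 neutrophil markers 3 were higher and 1 lower (53.4 to 206 against 10.2 to 67.5), and of 5 B cell markers 3 were higher (72.8 to 118 against 45.1 to 78.8). Their part in the differences of the fatty acid genes was not tested. The summed signal of 17 cardiomyocyte markers lay between 5.56 and 9.96 in all PBMC samples. The difference between the 2 PBMC contrasts, tested as an interaction, passed for 0 of the 42 genes, where 0.213% of all probesets were higher and 0.135% lower in it. At an unadjusted p under 0.05 there were 4: Pdk4 (0.86 ± 0.28), Echs1 (0.65 ± 0.29), Acadm (0.45 ± 0.21) and Ucp2 (-0.70 ± 0.29). The share of all probesets at that cut was not counted, and the smallest adjusted p of the 42 genes in limma was 0.367.

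**Figure D5:**
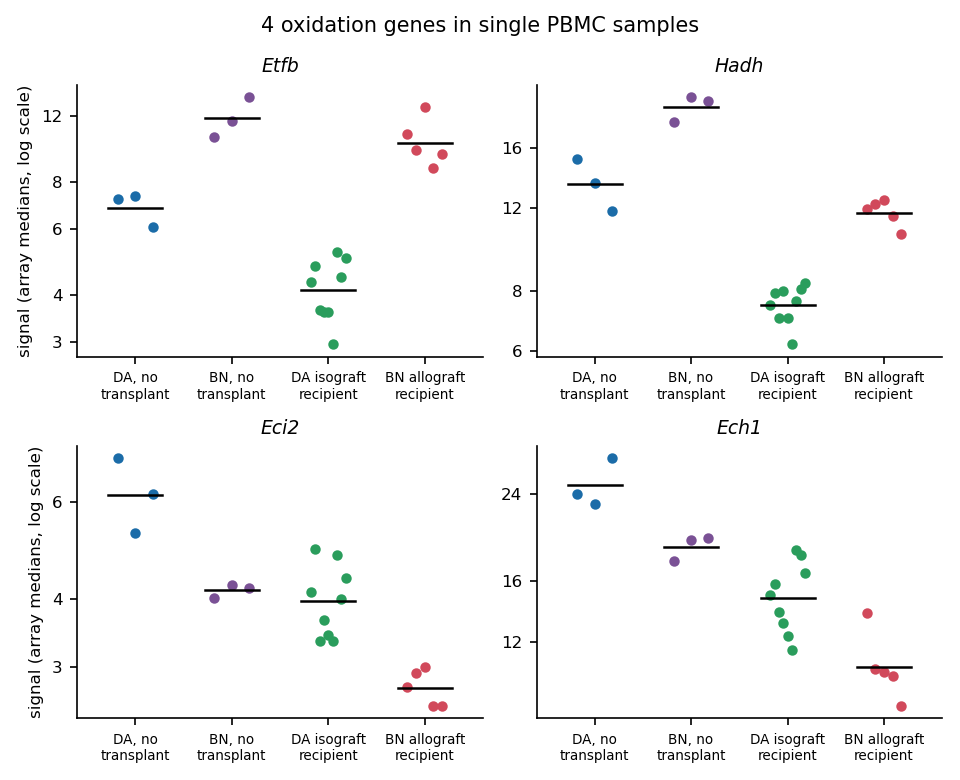
Signal in array medians (log scale) of 4 oxidation genes in single PBMC samples (points) with the geometric mean of each group (line). Etfb and Hadh lie higher and Eci2 lower in BN than in DA rats, with and without a transplant, and none of the 4 genes differed between these contrasts at an adjusted p of at most 0.10. Ech1 passed between the recipients only, where its groups overlap.

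Several genes of the heart comparisons were also read in PBMC. Acsl1 gave 0.56 ± 0.32 between untransplanted BN and DA rats and 0.09 ± 0.22 between recipients, Cpt1a gave 0.13 ± 0.22 and 0.17 ± 0.15, and Acsl4 gave -0.34 ± 0.19 and 0.04 ± 0.13, and none of them passed. In PBMC, Fabp3 lay between 0.122 and 1.2 array medians, Cpt1b between 0.838 and 1.72, Acsl6 between 0.0205 and 0.140 and Acsl1 between 5.65 and 19.3. In untransplanted rats Hadha and Hadhb, the head-to-head pair, were -0.32 ± 0.25 and -0.34 ± 0.17, without overlap between the strains for either, and neither passed.

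Genes of neighbouring pathways were read from 5 further lists. Their counts stand against 21.2% of all probesets that fell and 20.3% that rose relative to the array median, and against 1.02% lower and 93.4% higher scaled to cardiomyocyte markers. Of 14 regulators of fatty acid use 9 fell in allografts and none rose (median -0.82), while scaled to cardiomyocyte markers 2 were lower and 9 higher. They include Prkaa2, a catalytic subunit of the energy sensor AMPK (-3.92 ± 0.77, adjusted p = 6.22e-04), Klf15, a transcription factor of cardiac lipid use (-3.42 ± 0.30, adjusted p = 2.09e-07), the nuclear receptor Rxrg (-2.19 ± 0.20, adjusted p = 2.35e-07) and the coactivator Ppargc1a, which was dim (-2.36 ± 0.67, adjusted p = 0.0106). Klf15 was 17.3-fold lower in allografts than in native DA hearts. Of 13 genes of ketone and branched-chain amino acid oxidation 12 fell (median -2.35), or 1 lower and 4 higher scaled to cardiomyocyte markers. Among those that fell were Bckdha and Bckdhb, subunits of the branched-chain ketoacid dehydrogenase (-2.97 ± 0.24 and -2.79 ± 0.27), Ivd, which degrades leucine (-2.58 ± 0.26), and Oxct1, which activates ketone bodies (-2.44 ± 0.28).

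Of 16 genes of peroxisomal oxidation 7 fell and none rose (median -0.79), or 1 lower and 14 higher scaled to cardiomyocyte markers. Those that fell include Phyh, which starts the oxidation of phytanic acid, at -3.26 ± 0.26 (adjusted p = 7.00e-08), and Ehhadh at -2.0 ± 0.43, Scp2 at -1.42 ± 0.20 and Hsd17b4 at -1.29 ± 0.17. Ehhadh was dim, with geometric means of 0.10 array medians in allografts and 0.41 in isografts. Of 12 genes of triglyceride storage 6 fell and 2 rose (median -0.67), or 0 lower and 8 higher scaled to cardiomyocyte markers. Those that fell include Cidea and Plin4, proteins of the lipid droplet, at -2.29 ± 0.21 and -2.12 ± 0.22, Lpin1 at -1.87 ± 0.17 and Gpam at -1.61 ± 0.58. Gpam was dim, with geometric means of 0.198 in allografts and 0.604 in isografts, and its groups overlapped. Of 18 other genes of uptake, binding and fuel choice 6 fell and 3 rose (median -0.18). Scaled to cardiomyocyte markers all 18 were higher, where 93.4% of all probesets were. Angptl4, a secreted inhibitor of lipoprotein lipase, rose 7.37-fold in allografts over isografts (2.88 ± 0.37, adjusted p = 1.10e-05) and also in isografts over native DA hearts (1.89 ± 0.39, adjusted p = 0.00965). Fabp5, a binding protein of skin, macrophages and endothelium, rose 6.32-fold (2.66 ± 0.17, adjusted p = 9.94e-09), while Got2 and Pdk1 fell (-1.53 ± 0.23 and -1.43 ± 0.22). These counts describe the lists and were not tested as sets.

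In isografts against native DA hearts, the counts of lower and higher genes were 2 and 1 of 14 regulators, 1 and 0 of 16 peroxisomal genes, 4 and 0 of 13 genes of ketone and branched-chain oxidation, 2 and 0 of 12 genes of triglyceride storage and 3 and 1 of the 18 others, where 6.59% of all probesets were lower and 7.15% higher. Bdh1, a ketone body dehydrogenase, gave -1.32 ± 0.37 (adjusted p = 0.0398), and the AMPK subunit Prkaa1 0.72 ± 0.22 (adjusted p = 0.0547).

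Dbi, the acyl-CoA binding protein, was the 1 gene of the 73 measured in these lists that passed between native BN and native DA hearts (-1.02 ± 0.22, adjusted p = 0.0293). Of all probesets 1.46% were lower and 1.48% higher in BN hearts. In PBMC 82 genes of the 5 lists were measured. In untransplanted rats 2 were higher and 6 lower, where 3.58% and 4.86% of all probesets were, and between recipients 8 were higher and 12 lower, where 6.66% and 12% were. The very-long-chain acyl-CoA synthetase Slc27a2 was 9.67-fold lower in BN than in DA rats without a transplant (-3.27 ± 0.32, adjusted p = 3.80e-06) and 8.03-fold lower in BN than in DA recipients (-3.0 ± 0.22, adjusted p = 3.78e-08). Mccc2, of leucine breakdown, was lower in both contrasts (-1.43 ± 0.20 and -1.22 ± 0.14), as was the peroxisomal racemase Amacr (-1.18 ± 0.27 and -0.96 ± 0.18). The lipid droplet protein Plin2 (0.84 ± 0.25 and 0.92 ± 0.17) and the nuclear receptor Pparg (0.77 ± 0.20 and 0.62 ± 0.14) were higher in both. The recipient groups overlapped for Amacr and Plin2 and did not for Mccc2 and Pparg. In untransplanted rats Plin2 passed at an adjusted p in limma of 0.0603.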

How the data were processed

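Total RNA of 18 rat hearts and 20 PBMC samples was hybridised to Affymetrix arrays, with a different array type for each tissue. The deposited values are signal intensities, 1 per probeset, which the authors made with MAS5 (version not given in the sources used here). On each array they average about 100 without the lowest and highest 2% of probesets. Probesets took the gene symbols of GEO's platform annotation, brought up to date with RefSeq. Each array was divided by the median of its non-control probesets, log2 transformed and fitted with limma 3.58.1 in R 4.3.3 (lmFit and eBayes) as 4 group means per tissue. The tissues were not compared by a test, since their arrays were normalized separately. Benjamini-Hochberg adjustment ran over all probesets (threshold 0.10). Arrays carry no read depth, so the number of samples limits precision. The p-values weigh a difference of group means against the spread between samples within groups, pooled over the 4 groups of a tissue and moderated by eBayes. The text names every measured gene of the list, and from each neighbouring list up to 4 genes of largest change in rejection and up to 2 in other comparisons. The members and lists were chosen with earlier results of these data known. The strain of each heart group was taken from the study's methods. Native and graft hearts with the same number came from 1 recipient, and their deviations correlated between -0.04 and 0.12. Alternatives were other normalizations, an offset of 0.25 array medians, a filter on dim probesets, the mean over a gene's probesets, ordinary analysis of variance, fits of the groups compared alone, scaling to 17 cardiomyocyte markers, the replicate block and leaving out each sample. The fit was tested on simulated data.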

Additional observations from a re-analysis of the deposited data

Results flagged for a closer look

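In 16 of 252 groups of 4 to 9 samples, 1 sample stood apart from the others of its group by Dixon's test, which by chance marks about 1 group in 20. In hearts, Acot1 was 0.0250 array medians in isograft 11 against 0.159 to 0.229 in the other isografts, and Lipe was 1.35 there against 1.99 to 2.12. Cpt1a was 3.61 in native DA heart 12 against 2.55 to 2.66, and 1.57 in native BN heart 6 against 2.57 to 2.80. Eci1 was 28.04 in native DA heart 12 against 37.3 to 38.8. Slc25a20 was 17.6 in native DA heart 13 against 12.4 to 13.2, and Cpt2 was 14.9 there against 10.9 to 11. Native BN heart 4 was highest for Cpt2, at 16.1 against 10.4 to 11.1, and for Hadhb, at 75.8 against 54.2 to 57.1.

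In PBMC of BN recipients, Fabp3 was 0.315 in replicate 4 against 0.685 to 0.886, and Cpt1a was 11.9 in replicate 5 against 7.31 to 8.24. Replicate 3 was highest for Decr1, at 11.1 against 7.39 to 8.22, and lowest for Pdk4, at 0.686 against 1.04 to 1.16. Among DA recipients, Lpl was 2.14 in replicate 18 against 0.527 to 1.05. Replicate 12 was lowest for Cpt1b, at 0.838 against 1.11 to 1.41, and for Eci1, at 2.95 against 4.10 to 4.75.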

How the results depend on the processing

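All 34 genes that passed in allografts over isografts kept direction and threshold in all 18 settings other than the cardiomyocyte scaling. That scaling gave 21 higher, 5 lower and a median of 0.50, where 93.4% of all probesets were higher and 1.02% lower, with a median of 2.43. Without allograft 4 the number lower was 33, the highest reached by leaving out a sample. In isografts over native DA hearts, a fit of these groups alone gave 1 higher and 6 lower, the cardiomyocyte scaling 0 and 2, and isografts 11 and 12 left out together 1 and 1 with a median of -0.18. Leaving out each heart gave 1 to 2 higher and 5 to 16 lower. With 5 to 7 lower, the fits without isograft 11, isograft 12, native DA heart 9 or native DA heart 13 held fewer than 14 by over 1.5 times. Blocking on the recipient (replicate block) gave 13 lower, not all of them among the 14, and 1 higher, and it changed no call in the other heart comparisons.

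In allografts over native DA hearts the median was -2.27 with quantile normalization and -2.61 with dim probesets removed. Scaled to cardiomyocyte markers it was -0.08, with 13 higher and 16 lower, where 90.4% and 1.54% of all probesets were. Between native BN and native DA hearts, 1 gene was higher with signals as deposited, 2 with the offset, 1 with dim probesets removed and 1 by ordinary analysis of variance, against 0 in limma. When a heart was left out 0 to 1 were higher, the 1 without native DA heart 12. In untransplanted PBMC the median moved from -0.05 to 0.08 with quantile normalization, to 0.12 with signals as deposited and to 0.03 with the mean over probesets, where 1 gene was higher. A fit of these groups alone gave 1 higher and 0 lower, leaving out each rat gave 0 to 2 higher, 0 to 1 lower and medians of -0.07 to 0.01, and the replicate block on the sample number gave 2 higher and 1 lower. The numbers of these rats share nothing else, with correlations of 0.003 to 0.037. In this section shares of all probesets are given for the cardiomyocyte scaling only. Between recipients 12 genes were higher with quantile normalization and 11 with signals as deposited, and 4 to 8 when a sample was left out (4 without BN recipient 5). The cause of these shifts was not tested. The 3 to 9 samples a group limit all of them, and signals under the array median, as for Acsl6, Acot1, Acacb and Acadsb in allografts, bound their fold changes loosely.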
